A study of Mus musculus with 9 samples.

Results

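Chemoattractant receptors were examined in neutrophils of the bone marrow, where such receptors help set whether the cells are held, released or recruited. The set comprised 10 named genes, namely Cxcr2, Cxcr4, Ccr1, Ccrl2, Fpr1, Fpr2, C5ar1, C3ar1, Ltb4r1 and Ptafr, which were looked up by symbol in the deposited table. The table listed 8 of them among its 7197 genes, and Ccrl2 and C3ar1 were not listed. Neutrophils were sorted as CD45+ CD11b+ Ly6G+ cells from mice aged 2 months, and their 3′-end RNA libraries comprised 5 from Rragc+/+ mice and 4 from RragcS74N/+ mice. Rragc encodes RagC, one of the Rag GTPases, through which amino acids activate the kinase mTORC1 at the lysosome. The RragcS74N/+ mice carry 1 germline knock-in allele that encodes an activated RagC with an asparagine in place of a serine, next to 1 wild-type allele, in all cells of the body and not in neutrophils alone. Mice were C57BL/6 per the study's methods, and the sex of these animals was not given in the labels. No group received a treatment. The study's text describes cells purified from several mice of each genotype, and more RragcS74N/+ mice than the 4 libraries used here. The labels tie no library to an animal, so p-values measure the spread between these libraries. Replicate numbers were assigned here, in the order of the samples within each genotype.

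These receptors signal largely through heterotrimeric G proteins of the inhibitory family, whose released βγ subunits activate lipid kinases and Rac GTPases at the front of a moving cell. Cxcr4 binds the stromal chemokine Cxcl12 and keeps neutrophils in the marrow, whereas Cxcr2 binds chemokines such as Cxcl1 and Cxcl2 and drives their release and recruitment. Ccr1 binds inflammatory CC chemokines, Fpr1 and Fpr2 bind formylated peptides of bacteria and mitochondria, and C5ar1 binds the complement fragment C5a. Ltb4r1 and Ptafr are receptors for the lipids leukotriene B4 and platelet-activating factor.

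Promoter windows of 3 receptors are shown, chosen after the values were seen. The counts of Cxcr2 and Ltb4r1 moved together between libraries and those of Ccr1 moved opposite to Ltb4r1, as described further on. The windows run from 250 bases before to 50 bases after the annotated start of each gene (RefSeq, build GRCm38.p6), and all 8 listed receptors had such a window. Capitals mark matches, on either strand, to GAGGAA (a core bound by the myeloid ETS factor PU.1, read as TTCCTC on the other strand) and to GGGCGG (the GC box, read as CCGCCC).
Cxcr2, chr1:74153744-74154043, plus strand: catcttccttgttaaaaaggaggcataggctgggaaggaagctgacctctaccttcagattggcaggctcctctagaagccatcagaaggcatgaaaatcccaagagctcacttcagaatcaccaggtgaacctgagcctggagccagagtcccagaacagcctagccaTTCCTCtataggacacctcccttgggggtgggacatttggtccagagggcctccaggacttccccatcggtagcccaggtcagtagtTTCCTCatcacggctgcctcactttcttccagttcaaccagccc
Ltb4r1, chr14:55765712-55766011, plus strand: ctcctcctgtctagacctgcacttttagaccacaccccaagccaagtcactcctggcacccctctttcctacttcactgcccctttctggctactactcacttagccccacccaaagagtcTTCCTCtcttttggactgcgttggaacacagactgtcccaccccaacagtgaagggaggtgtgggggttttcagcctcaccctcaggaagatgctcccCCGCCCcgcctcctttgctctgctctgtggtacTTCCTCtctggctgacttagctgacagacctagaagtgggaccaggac
Ccr1, chr9:123968643-123968942, minus strand: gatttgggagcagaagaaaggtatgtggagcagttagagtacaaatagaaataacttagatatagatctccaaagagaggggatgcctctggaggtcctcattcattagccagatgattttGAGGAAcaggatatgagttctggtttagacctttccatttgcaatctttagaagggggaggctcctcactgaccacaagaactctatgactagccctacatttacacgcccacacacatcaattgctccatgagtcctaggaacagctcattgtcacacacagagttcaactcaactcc
The windows of Cxcr2 and Ltb4r1 each held 2 matches to GAGGAA, of which the one nearer the gene began 7 bases after the start in Cxcr2 and 3 bases after it in Ltb4r1. The window of Ccr1 held 1 match, at -129 to -124 from the start, and that of Ltb4r1 also held 1 GC box. Over all 8 receptors, 5 windows held GAGGAA, 3 held GGGCGG, 3 held TATAAA (the TATA box) and 0 held TTGCNNAA (a C/EBP core). The shares of all 32851 windows of that length in the table were 28.3%, 35.7%, 13.6% and 10.8%, in the same order. Matches to different motifs did not overlap in the windows shown. GAGGAA also lay in the windows of Fpr2, at -19 to -14, and of Ptafr, at -242 to -237. Their Pearson's r with Cxcr2, computed as described further on, was -0.338 and 0.449. These are matches of letters, and no factor's binding was measured. A link between the matches and the way the counts moved was not tested.

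The 8 listed receptors spanned a wide range of levels, and the formyl peptide receptor Fpr2 stood at the top in 9 of 9 libraries. Values are normalized counts, that is reads per gene divided by 1 size factor per library. The libraries read each transcript once from its tail, so the counts were not divided by transcript length, and how well each gene's 3′ end was primed or annotated was not tested. Fpr2 overlaps Fpr3 on the same strand in the GENCODE annotation of GRCm38 and has close paralogs, so its count, its rank and its ratio to Fpr1 are uncertain. The GRCm39 annotation used for counting was not examined for this overlap, and how reads were divided among these genes was not tested. Fpr2 had a mean of 3805 normalized counts over the 9 libraries and lay at percentile 99.6 of all listed genes. Fpr1 (1562, percentile 98.6) and Cxcr2 (1480, percentile 98.5) followed, and their order changed between libraries, with Fpr1 second in 5 and Cxcr2 second in 4. Ccr1 averaged 667 normalized counts (percentile 95.6) and had rank 4 in 8 of 9 libraries. The remaining 4 receptors averaged from 249 to 291, with Cxcr4 at 249, Ptafr at 277, C5ar1 at 290 and Ltb4r1 at 291. Their ranges over libraries overlapped and their order changed from library to library, so these neighbours did not differ beyond their spread. Together the 8 genes took 0.575% to 0.682% of the recovered reads of a library.

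**Figure D1:**
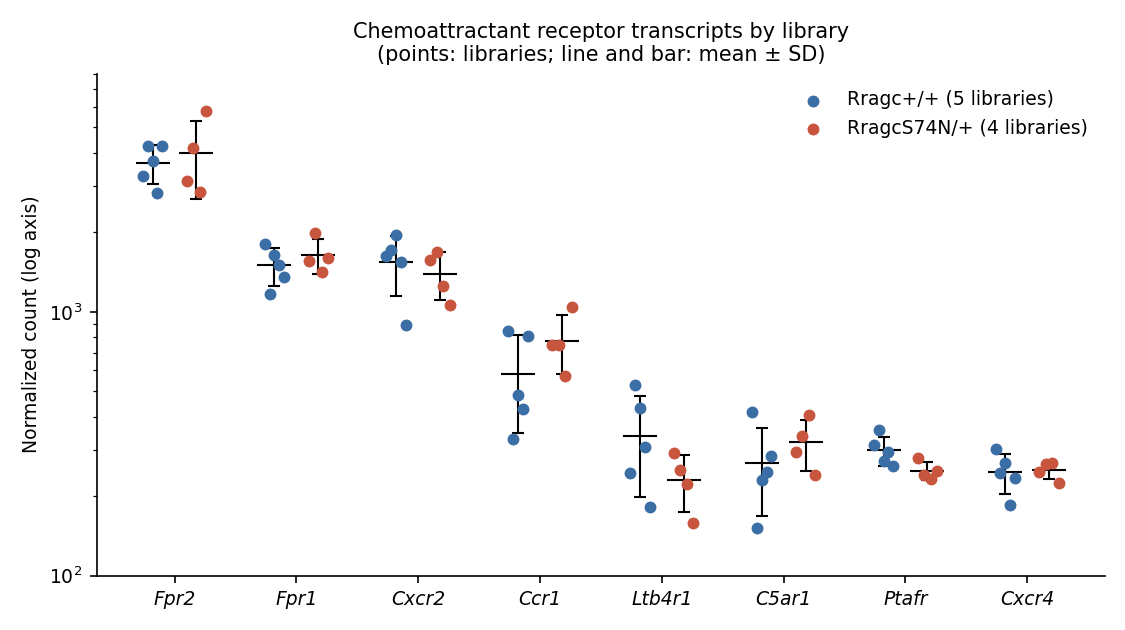
Normalized counts of the 8 listed chemoattractant receptors on a log axis, with each point a library (blue, 5 Rragc+/+, and red, 4 RragcS74N/+) and the black line and bar the mean ± SD of a genotype. Fpr2 lies above all other receptors in every library, and the points of both genotypes overlap for all 8 genes.

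Reads recovered from the table, described with the processing, numbered 1214295 to 1973957 per library over the listed genes. The lowest read count of a receptor in any library was 129, for C5ar1, and counting error alone gives such a count a CV of 8.8%. Rragc itself had a mean of 71.0 ± 10.35 (SD, n = 5) in wild-type and 65.8 ± 9.524 (SD, n = 4) in heterozygous libraries, with a log2 difference of -0.11 (adjusted p = 0.86, limma). The edit changes the coding sequence, so this count does not show which allele was transcribed. Ptprc, Itgam and Ly6g, which encode the sorting markers, were all listed, as were 9 of 9 mature neutrophil genes, whose summed level was 125337 to 185129 in Rragc+/+ and 119807 to 204731 in RragcS74N/+ libraries. Most of that sum came from S100a8 and S100a9. Of 11 immature neutrophil markers 7 were listed, and Elane, Mpo, Prtn3 and Ctsg were not. Those 7 summed to 22934 to 31408 in Rragc+/+ and 18912.5 to 32848 in RragcS74N/+ libraries. Of 8 monocyte and macrophage markers 3 were listed (Csf1r, Ly6c2 and Adgre1), and the defining Ccr2 and Cx3cr1 were not. Their summed level was 2242 to 3472 in Rragc+/+ and 2264 to 4027 in RragcS74N/+ libraries. Ly6c2 made up most of it, with means of 2651 in Rragc+/+ and 2708 in RragcS74N/+ libraries, so the sum says little of Csf1r and Adgre1. Csf1r had means of 177 and 102 in the same order and was highest in Rragc+/+ replicate 2, at 339 (log2 difference -0.66, unadjusted p = 0.0719, limma). The log2 differences of Ly6c2 and Adgre1 were 0.001 and -0.29. With the library trend on 3′ GC content removed, as described further on, they were 0.13 and -0.42, and that of Csf1r was -0.32. Of 7 erythroid markers 6 were listed, and their summed level was 1084 to 5530 normalized counts in Rragc+/+ and 370 to 2104 in RragcS74N/+ libraries. All 5 erythroid markers tested had a lower estimate in RragcS74N/+, each with an adjusted p of 0.713 and an unadjusted p under 0.05 (limma). Over all genes tested, 5.81% reached an unadjusted p under 0.05 (limma). Prg2, which encodes the major basic protein of eosinophil granules, was the 1 eosinophil, basophil or mast cell marker with such a p (log2 difference 1.38, unadjusted p = 0.0394, adjusted p = 0.713, limma). Of 11 markers of those cells 4 were listed, and their summed level was 52.5 to 136 in Rragc+/+ (median 60.8) and 59.0 to 218 in RragcS74N/+ libraries (median 142). The 4 markers did not move alike. Mean counts in Rragc+/+ and RragcS74N/+ libraries were 30.4 and 88.4 for Prg2 and 6.23 and 16.3 for Epx. They were 28.6 and 25.9 for Siglecf and 9.95 and 9.50 for Ccr3. The part of any of these marker classes in the receptor values was not tested. Rragc+/+ replicate 2 was the library least like the others, with a mean Spearman correlation of 0.901.

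The comparison of genotypes asked whether activated RagC signalling went with another level of these receptors. None of the 8 receptors passed the adjusted threshold of 0.05 (limma on log2(normalized count + 1), Benjamini-Hochberg over all 6673 genes tested), and 0 had an unadjusted p under 0.05. Over all genes tested, 0 (0%) passed that threshold, 388 (5.81%) reached an unadjusted p under 0.05, and the smallest adjusted p was 0.713. On the recovered reads, 0 receptors had an unadjusted p under 0.05 with edgeR or with DESeq2, against 6.89% and 6.7% of all genes tested. The genotypes overlapped for all 8 receptors, while 1.69% of the genes tested had genotypes that did not overlap. The receptors' log2 differences, RragcS74N/+ minus Rragc+/+, ran from -0.49 to 0.48 with a median of 0.06, beside a median of 0.02 over all genes. Of the 8 estimates 5 were above 0 and 3 below, beside 3564 above and 3109 below over all genes tested. In sorted bulk samples, fewer cells that carry a transcript and less of it per cell cannot be told apart.

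**Figure D2:**
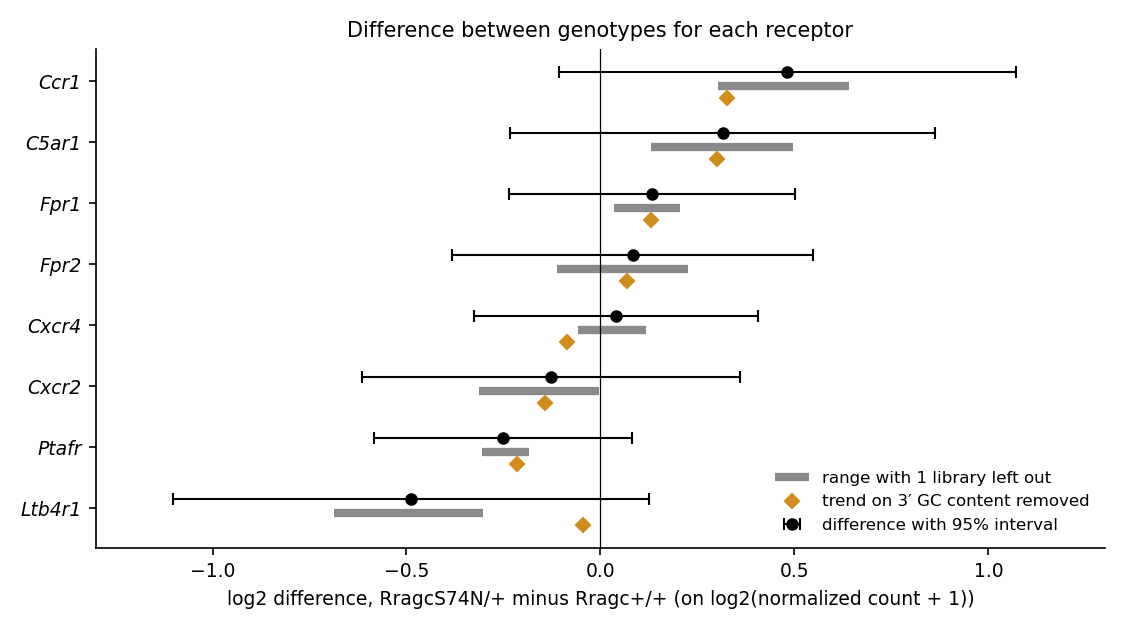
log2 difference between genotypes (RragcS74N/+ minus Rragc+/+, on log2(normalized count + 1)) for each receptor, with black points and bars the limma estimate and its 95% interval, grey bars the range when 1 library was left out, and orange diamonds the estimate with the library trend on 3′ GC removed. All 8 intervals include 0, and the estimate of Ltb4r1 moves from -0.49 to -0.05 with the trend removed.

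The chemokine receptors were described first. Cxcr4, the retention receptor, measured 303, 244, 267, 186 and 234 normalized counts in the Rragc+/+ libraries and 247, 266, 267 and 225 in the RragcS74N/+ libraries. The lowest and the highest value were both Rragc+/+, and all RragcS74N/+ values lay between them. The means were 247 ± 43.2 (SD, n = 5) and 251 ± 19.9 (SD, n = 4), with a log2 difference of 0.04 ± 0.17 (SE) and an adjusted p of 0.949 (limma). Its 95% interval covered folds from 0.798 to 1.33. The sign of this estimate turned to -0.06 without Rragc+/+ replicate 4 and to -0.09 with the trend on 3′ GC removed.

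Cxcr2, the release and recruitment receptor, measured 1627, 1721, 1951, 1543 and 895 in Rragc+/+ and 1573, 1693, 1253 and 1060 in RragcS74N/+ libraries. Rragc+/+ replicate 5 had the lowest value, with RragcS74N/+ replicate 4 next, and the Rragc+/+ group also held the 2 highest values. The means were 1548 ± 395 (SD, n = 5) and 1395 ± 290 (SD, n = 4), a log2 difference of -0.13 ± 0.23 (SE, adjusted p = 0.865, limma) with folds from 0.653 to 1.28 inside the 95% interval. The estimate was -0.31 without Rragc+/+ replicate 5 and -0.004 without RragcS74N/+ replicate 4.

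The linear ratio of Cxcr2 to Cxcr4, which sets the release receptor against the retention receptor, was 3.83 to 8.31 in Rragc+/+ (median 7.05) and 4.70 to 6.38 in RragcS74N/+ libraries (median 5.47). All 4 RragcS74N/+ ratios lay within the Rragc+/+ range. Cxcr1, the close relative of Cxcr2, had a mean of 15.5 normalized counts in Rragc+/+ and 7.32 in RragcS74N/+ libraries, a log2 difference of -0.88 ± 0.46 (SE, unadjusted p = 0.0774, adjusted p = 0.713, limma), and is given with its values known. The level of Cxcr1 lay near 10, the lowest mean at which a gene was tested. The atypical Cxcl12 receptor Ackr3 was not listed.

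Ccr1, the receptor for inflammatory CC chemokines, measured 849, 331, 484, 429 and 809 in Rragc+/+ and 746, 746, 572 and 1039 in RragcS74N/+ libraries. The Rragc+/+ values fell into 3 low and 2 high libraries, the 3 low ones lay below all RragcS74N/+ values, and RragcS74N/+ replicate 4 was the highest of all. The means were 580 ± 234 (SD, n = 5) and 776 ± 194 (SD, n = 4), and the log2 difference of 0.48 ± 0.27 (SE) was the highest estimate among the receptors (unadjusted p = 0.102, adjusted p = 0.713, limma). The 95% interval covered folds from 0.928 to 2.10. The unadjusted p was 0.0306 without Rragc+/+ replicate 1, 0.0344 without Rragc+/+ replicate 5 and 0.0459 with array quality weights, and the adjusted p was at least 0.34 over all 20 alternatives.

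The formyl peptide receptors had estimates near 0. Fpr1 measured 1811, 1173, 1646, 1508 and 1361 in Rragc+/+ and 1554, 1992, 1412 and 1599 in RragcS74N/+ libraries. Its highest value was in RragcS74N/+ replicate 2 and its lowest in Rragc+/+ replicate 2, and the other libraries of the genotypes were interleaved. The means were 1500 ± 247 (SD, n = 5) and 1639 ± 248 (SD, n = 4), with a log2 difference of 0.13 ± 0.17 (SE, adjusted p = 0.812, limma) and folds from 0.849 to 1.42 inside the interval. The estimate was 0.04 without RragcS74N/+ replicate 2.

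Fpr2, which also senses annexin A1 and cathelicidin peptides, measured 3263, 4239, 3731, 2826 and 4256 in Rragc+/+ and 3144, 4190, 2852 and 5745 in RragcS74N/+ libraries. RragcS74N/+ replicate 4 stood above all others, and the remaining RragcS74N/+ values lay within the Rragc+/+ range. The means were 3663 ± 622 (SD, n = 5) and 3982 ± 1308 (SD, n = 4), a log2 difference of 0.08 ± 0.22 (SE, adjusted p = 0.908, limma). The estimate turned to -0.11 without RragcS74N/+ replicate 4 and to -0.006 without Rragc+/+ replicate 4, so its sign rested on single libraries. Of the genes with which Fpr2 could share reads, Fpr3 and 4 further Fpr paralogs (Fpr-rs3, Fpr-rs4, Fpr-rs6 and Fpr-rs7) were not listed.

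The linear ratio of Fpr2 to Fpr1 was 2.02, 2.10, 2.02 and 3.59 in the RragcS74N/+ libraries and 1.80 to 3.61 in the Rragc+/+ libraries (median 2.27). RragcS74N/+ replicate 4 had a ratio far from the others of its genotype but within the Rragc+/+ range.

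C5ar1, the complement C5a receptor, measured 418, 151, 231, 248 and 284 in Rragc+/+ and 293, 339, 406 and 241 in RragcS74N/+ libraries. Rragc+/+ replicate 1 held the highest value and Rragc+/+ replicate 2 the lowest, so one genotype spanned the other. The means were 266 ± 97.7 (SD, n = 5) and 320 ± 69.8 (SD, n = 4), a log2 difference of 0.32 ± 0.26 (SE, unadjusted p = 0.236, adjusted p = 0.741, limma). The 95% interval covered folds from 0.852 to 1.82. Without Rragc+/+ replicate 1 the estimate was 0.50 (unadjusted p = 0.0479, adjusted p = 0.502, limma), and without Rragc+/+ replicate 2 it was 0.13.

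The lipid receptors had estimates below 0. Ltb4r1, the high-affinity receptor for leukotriene B4, measured 246, 529, 432, 307 and 182 in Rragc+/+ and 291, 251, 222 and 158 in RragcS74N/+ libraries. The 3 Rragc+/+ libraries with the highest counts (replicates 2, 3 and 4) lay above all RragcS74N/+ values, whereas Rragc+/+ replicates 1 and 5 lay among them. The means were 339 ± 140 (SD, n = 5) and 231 ± 56.1 (SD, n = 4), and the log2 difference of -0.49 ± 0.28 (SE) was the lowest among the receptors (unadjusted p = 0.109, adjusted p = 0.713, limma), with folds from 0.466 to 1.09 inside the interval. The unadjusted p was 0.0174 without Rragc+/+ replicate 5 (estimate -0.69) and 0.0313 with array quality weights, and the estimate without Rragc+/+ replicate 2 was -0.30. The lowest adjusted p over all 20 alternatives was 0.326.

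Ptafr, the receptor for platelet-activating factor, measured 312, 356, 273, 293 and 260 in Rragc+/+ and 279, 240, 232 and 249 in RragcS74N/+ libraries. Here 3 of 5 Rragc+/+ libraries lay above all RragcS74N/+ libraries and 3 of 4 RragcS74N/+ libraries below all Rragc+/+ libraries, and RragcS74N/+ replicate 1 made the groups overlap. The means were 299 ± 37.8 (SD, n = 5) and 250 ± 20.6 (SD, n = 4), a log2 difference of -0.25 ± 0.16 (SE, unadjusted p = 0.128, adjusted p = 0.713, limma) with folds from 0.667 to 1.06 inside the interval. The estimate stayed between -0.31 and -0.19 when any 1 library was left out, and the adjusted p was at least 0.407 over all 20 alternatives.

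The receptors differed widely in how much they varied between libraries of the same genotype. The residual SD of log2 values was 0.53 for Ltb4r1, 0.50 for Ccr1 and 0.45 for C5ar1, at percentiles 81.9, 79.2 and 70.3 of all genes tested. At the other end, Ptafr had a residual SD of 0.15 (percentile 3.66), Cxcr4 0.21 (percentile 12.2) and Fpr1 0.23 (percentile 15.9). Cxcr2 (percentile 57.3) and Fpr2 (percentile 49.5) lay near the middle. Ptafr and Cxcr4 were among the receptors with fewer reads, at 236 to 473 reads for Ptafr and 209 to 460 for Cxcr4.

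Within a genotype, Cxcr2 and Ltb4r1 moved together and Ccr1 moved opposite to Ltb4r1. Across the 9 libraries, with each genotype centred on its own mean, Pearson's r was 0.830 between Cxcr2 and Ltb4r1 and -0.818 between Ccr1 and Ltb4r1. Rragc+/+ replicate 5 lay 0.74 log2 units below its genotype mean for Cxcr2 and 0.79 below it for Ltb4r1, and 0.57 above it for Ccr1. Rragc+/+ replicate 2 lay 0.74 above the mean for Ltb4r1 and, for Ccr1 and C5ar1, 0.71 and 0.74 below it. For the retention and release receptors, Cxcr2 and Cxcr4, r was 0.326, the Spearman correlation 0.517, and r 0.481 with the trend on 3′ GC removed. For the formyl peptide receptors, Fpr1 and Fpr2, these values were -0.040, -0.033 and -0.087. Over all 28 pairs the median r was 0.009 and 50% were positive, beside a median of 0.004 and 50.3% positive over all pairs of genes whose mean reached 50 normalized counts. These correlations describe 9 libraries whose points share a library's depth and base composition, and no p was computed.

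**Figure D3:**
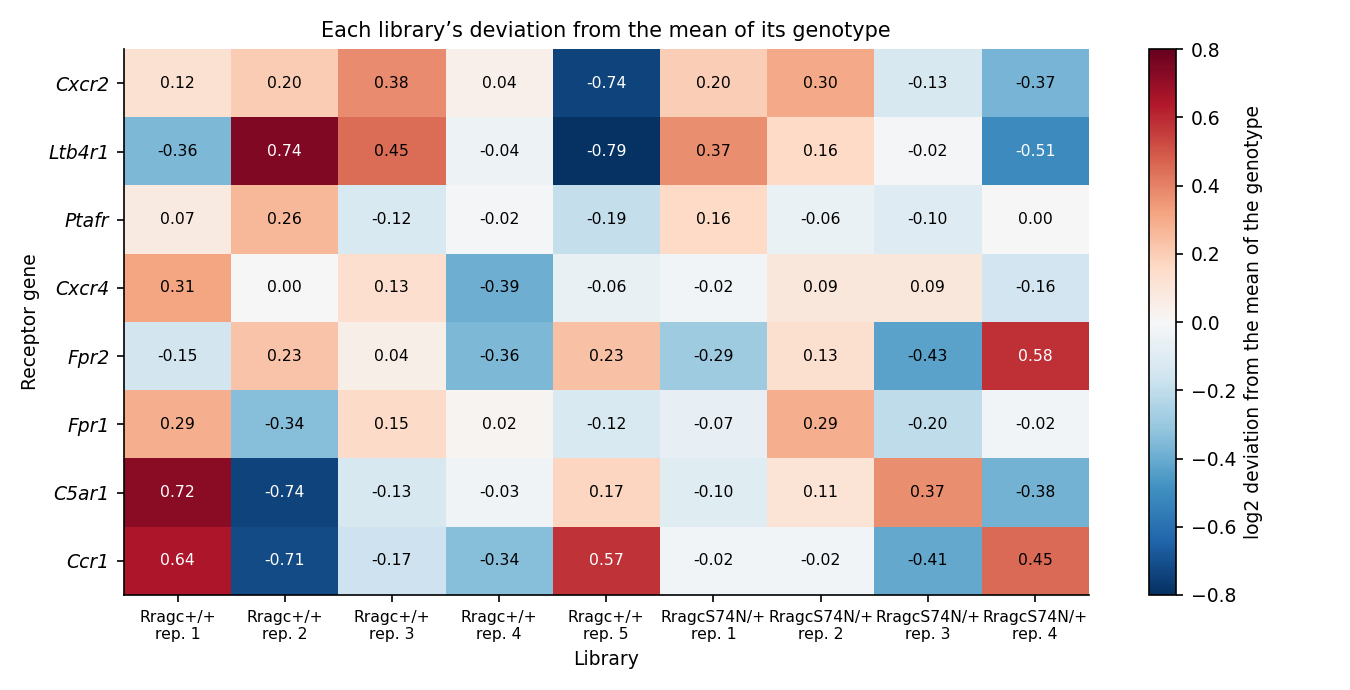
Deviation of each library (columns) from the mean of its own genotype for each receptor (rows), in log2 units, with red above and blue below the mean. Cxcr2 and Ltb4r1 share the sign of their deviation in 7 of 9 libraries and are both lowest in Rragc+/+ replicate 5, whereas Ccr1 is high there.

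Among the 3475 genes whose mean reached 50 normalized counts, the gene whose deviations were most like those of Ltb4r1 was Bcl3, which encodes a nuclear regulator of NF-κB (r = 0.991). Pdcd6 was most like Ccr1 (r = 0.984), Srd5a3 most like C5ar1 (r = 0.962) and Rmdn1 most like Fpr2 (r = 0.958). Lrrfip2 was most like Cxcr2 (r = 0.952), Fam214b most like Cxcr4 (r = 0.949), Acod1 most like Ptafr (r = 0.938) and Ybx1 most like Fpr1 (r = 0.926). Each r is the highest of 3475 over only 9 libraries and is given as a description. The trend on 3′ GC, described below, was not removed for these values. The 3′ GC content was 56.6% in Bcl3 and 61.8% in Ltb4r1, beside a median of 43% over genes tested. In the other most alike genes it ran from 36% (Ybx1) to 47.4% (Fam214b). Whether the r of Bcl3 with Ltb4r1 reflected their GC content was not tested.

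The base composition of the receptors' transcript ends differed, and the libraries differed in how counts followed it. The last 500 nucleotides of the transcript held 61.8% GC in Ltb4r1, at percentile 99.7 of genes tested, and 33.0% in Ccr1, at percentile 9.78, around a median of 43.0% for all genes tested. Over 6556 genes, a library's log2 deviation from the mean of all libraries had a Spearman correlation with this GC content of 0.385 in Rragc+/+ replicate 2, 0.249 in replicate 3, 0.221 in replicate 4, 0.068 in replicate 1 and -0.234 in replicate 5. In the RragcS74N/+ libraries the correlations were -0.406, -0.192, -0.023 and -0.231. Thus 4 of 5 Rragc+/+ libraries were above 0 and all 4 RragcS74N/+ libraries below it.

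The levels of the receptors with extreme GC content followed this order in part. Ltb4r1 was highest in Rragc+/+ replicates 2, 3 and 4, the 3 libraries with the highest correlation, and Ccr1 was lowest in the same 3 libraries. With the trend of every library on GC content removed, an alternative added after the data were seen, the log2 difference went from -0.49 to -0.05 for Ltb4r1 (unadjusted p = 0.828, adjusted p = 0.972, limma) and from 0.48 to 0.33 for Ccr1 (adjusted p = 0.873, limma). The other 6 receptors had a GC content of 36.4% to 46.0%, and of these Cxcr4 went from 0.04 to -0.09, while the rest moved by at most 0.04. Because the correlation and the genotype go together in these libraries, removal of the trend also removes any genotype difference that follows GC content, and those cannot be told apart. The tie of Cxcr2 to Ltb4r1 was r = 0.786 with the trend removed, and that of Ccr1 to Ltb4r1 was r = -0.558.

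**Figure D4:**
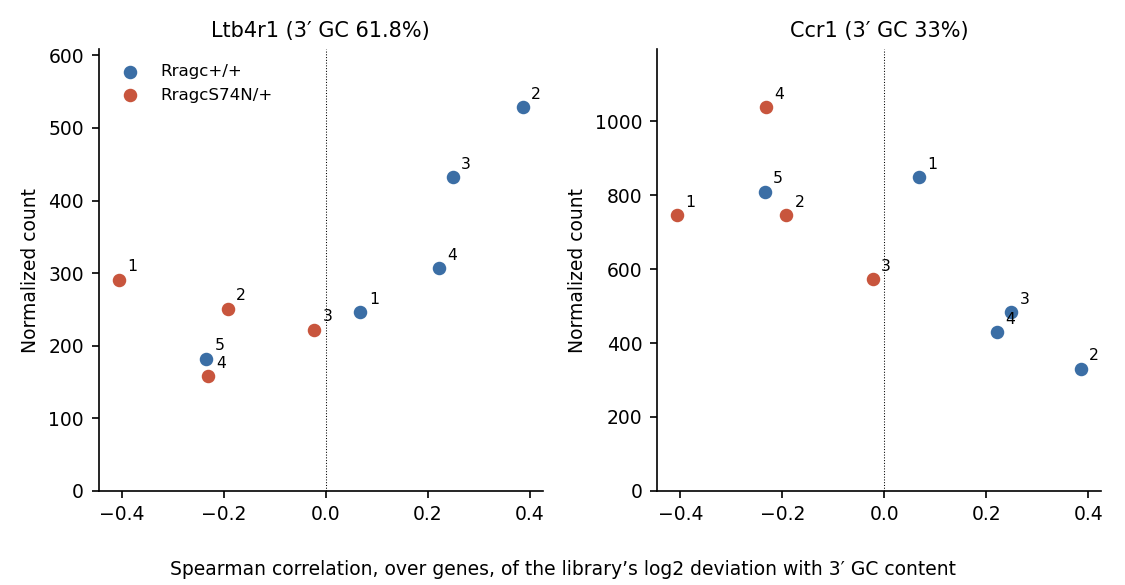
Normalized count of Ltb4r1 (left) and Ccr1 (right) in each library against the Spearman correlation, over genes, of that library's log2 deviation with the GC content of transcript 3′ ends, with the replicate number beside each point (blue, Rragc+/+, and red, RragcS74N/+). The 3 libraries furthest to the right, Rragc+/+ replicates 2, 3 and 4, have the highest Ltb4r1 and the lowest Ccr1 counts.

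Genes around the receptors were then examined in 4 lists, namely other chemoattractant and migration receptors, G proteins and their effectors, genes of receptor desensitisation, and ligands with the enzymes that make or remove them. Of 116 genes named, 67 were listed and 60 tested, and 0 passed the adjusted threshold. At an unadjusted p under 0.05 there were 4 genes, 1 with a higher and 3 with a lower estimate in RragcS74N/+, beside the 5.81% of all genes tested. The median log2 difference of the 60 genes was -0.05, beside 0.02 over all genes, and 27 estimates were above 0 and 33 below.

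Of the other receptors 11 of 37 were listed and 9 tested, and 2 had an unadjusted p under 0.05. P2ry2, a receptor for ATP and UTP that amplifies chemotactic signals, measured 27.0, 36.2, 28.1, 28.1 and 29.1 normalized counts in Rragc+/+ and 20.6, 20.3, 15.8 and 15.7 in RragcS74N/+ libraries. All RragcS74N/+ values lay below all Rragc+/+ values, as in 1.69% of genes tested in either direction, with a log2 difference of -0.69 ± 0.21 (SE, unadjusted p = 0.00501, adjusted p = 0.713, limma) and of -0.52 with the GC trend removed. P2ry2 had 15 to 41 reads per library, and counting error alone gives the lowest a CV of 25.8%. Adora3, an adenosine receptor, measured 9.88, 14.0, 4.69, 15.3 and 5.01 in Rragc+/+ and 23.2, 20.3, 11.3 and 16.7 in RragcS74N/+ libraries. Its genotypes overlapped, and the log2 difference was 0.90 ± 0.38 (SE, unadjusted p = 0.0315, adjusted p = 0.713, limma). Adora3 had only 5 to 35 reads per library, with a counting CV of 44.7% at the lowest. The 3 genes of this list with the highest level, S1pr4 (a sphingosine 1-phosphate receptor), C5ar2 (the second C5a receptor) and Ffar2 (a receptor for short-chain fatty acids), had log2 differences of -0.18, -0.05 and -0.03. The estimates of the list ran from -0.88, for Cxcr1, to 0.90, for Adora3.

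Of the G proteins and effectors 31 of 34 were listed and 30 tested, and their median log2 difference was 0.015. Gnai2, the inhibitory Gα subunit most used by chemoattractant receptors, measured 3640 ± 898 (SD, n = 5) and 3017 ± 529 (SD, n = 4), a log2 difference of -0.24 (adjusted p = 0.746, limma). Rac2, the Rac GTPase of blood cells, had a log2 difference of -0.33 (adjusted p = 0.713, limma) and Gng5, a Gγ subunit, of -0.07. Gng10, another Gγ subunit, had a log2 difference of -0.86 (unadjusted p = 0.0344, adjusted p = 0.713, limma) at 14.6 ± 7.75 (SD, n = 5) and 6.92 ± 1.10 (SD, n = 4) normalized counts. It had only 6 to 23 reads per library, with a counting CV of 40.8% at the lowest. Ric8a, a chaperone of Gα subunits, had a log2 difference of -0.48 (unadjusted p = 0.0378, adjusted p = 0.713, limma), and both genes' genotypes overlapped. With the GC trend removed, the log2 differences were -0.08 for Gnai2, -0.15 for Rac2 and -0.34 for Ric8a. They were -0.20 for Gng5 and -1.02 for Gng10, further from 0 than before.

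Of the desensitisation genes 11 of 16 were listed and tested, and 0 had an unadjusted p under 0.05. Their median log2 difference was -0.20, and it was 0.05 with the GC trend removed. Rgs2 and Rgs18, which speed the switching off of Gα subunits, had log2 differences of 0.10 and 0.41 (unadjusted p = 0.52 and 0.064, limma), and Arrb2, the β-arrestin that uncouples and internalises receptors, of -0.12.

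Of the ligands and their enzymes 14 of 29 were listed and 10 tested, with 0 at an unadjusted p under 0.05 and a median log2 difference of -0.004. Cxcl12, the ligand of Cxcr4, was not listed. Camp, whose cathelicidin peptide is a ligand of Fpr2, measured 7461 ± 3367 (SD, n = 5) and 9291 ± 3163 (SD, n = 4), a log2 difference of 0.36 (adjusted p = 0.741, limma). Ccl6, a CC chemokine that binds Ccr1, had a log2 difference of -0.26 (adjusted p = 0.729, limma). Alox5ap, which presents arachidonate to the enzyme that begins leukotriene synthesis, had a log2 difference of -0.08 (adjusted p = 0.869, limma).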

How the data were processed

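The deposited table holds a signal made from gene read counts. Per the labels and the study's methods, the authors prepared 3′-end libraries with molecular identifiers, aligned reads to GRCm39 with TopHat2 2.0.10 and Bowtie 1.0.0, counted them by strand with HTSeq 0.6.1 on a GENCODE annotation, and divided them by 1 size factor per library. The sources used here do not give the filter behind the list of genes, or whether molecular identifiers served to remove duplicate reads. Reads with duplicates are not independent molecules, so counting errors cover counting alone. All listed genes had reads in 7 libraries or more, so scarce transcripts are under-represented.

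In each library 100% of values, divided by the worth of a single read, were whole within 0.01 reads, and the quotients were taken as recovered reads. In the 16 pairs of libraries of 1 genotype, counts differed by more than sampling noise (chi-square per degree of freedom at least 5.7), so none was counted as a duplicate. All columns were matched to a sample by the labels, which give no batch.

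Genes whose mean reached 10 were tested on log2(value + 1) with limma 3.58.1 (R 4.3.3, trended moderation, genotype as the one term) and Benjamini-Hochberg adjustment. edgeR 4.0.16 and DESeq2 1.42.0 were run on the recovered reads. The other alternatives changed the pseudocount, filter, scaling, moderation or weights or left out 1 library, and removal of a lowess trend (span 0.3) on the GC content of the last 500 nucleotides was added after the data were seen. GC content came from GENCODE transcripts of GRCm38, matched by symbol for 7067 of 7197 genes. The procedure was tested on simulated counts. These carried no GC trend that followed genotype, so how the tests behave under such a trend was not tested.

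The receptors and the gene lists were chosen with earlier results of these data known. Named are all listed receptors, from each list the tested genes with an unadjusted p under 0.05 and the 3 with the highest mean, and for each receptor the gene with the highest correlation. The Ccr1 to Ltb4r1 and Cxcr2 to Ltb4r1 pairs were chosen after their values were seen.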

Additional observations from a re-analysis of the deposited data

Results flagged for a closer look

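Of 80 groups of libraries tested by Dixon's criterion, 6 held a library apart from the others, and chance gives about 4. The gap to the nearest library as a share of the range was 0.946 for the linear ratio of Fpr2 to Fpr1 in RragcS74N/+ replicate 4, at 3.59 beside 2.10. In the same library it was 0.898 for the linear ratio of Ccr1 to Ltb4r1, at 6.58 beside 2.97, a ratio chosen after the values were seen, and 0.882 for the summed sorting markers, at 6159 beside 5113 normalized counts. The sorting markers did not move alike there. Ly6g had its highest value of all libraries, at 4066, whereas Ptprc and Itgam had their lowest, at 1189 and 903. Of the linear ratios of Ccr1 to Ltb4r1, those in the other RragcS74N/+ libraries were 2.56 to 2.97 and those in Rragc+/+ 0.625 to 4.43. In Rragc+/+ replicate 2 the share was 0.775 for P2ry2, at 36.2 beside 29.1 normalized counts, and 0.788 for the mean Spearman correlation with the other libraries, at 0.901 beside 0.939. In Rragc+/+ replicate 5 it was 0.821 for the summed eosinophil, basophil and mast cell markers, at 136 beside 67.5 normalized counts, where the RragcS74N/+ libraries had 59.0 to 218 with a median of 142.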

How the results depend on the processing

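No paired analysis was made, because the labels, which carry no replicate number, tie no library of one genotype to a library of the other. Over the 20 alternatives, of which 9 left out 1 library, 0 genes and 0 receptors passed the adjusted threshold. Of 160 alternative values of the 8 receptors, 156 kept their direction and 4 reversed, namely Cxcr4 at -0.087 with the trend on 3′ GC content removed and at -0.057 without Rragc+/+ replicate 4, and Fpr2 at -0.006 without Rragc+/+ replicate 4 and at -0.112 without RragcS74N/+ replicate 4. For these reversals the cause was not tested. The 11 alternatives that left out no library used the same 9 libraries, so their estimates are not independent of the main ones. Estimates near 0 counted as kept too, such as Cxcr2 at -0.004 without RragcS74N/+ replicate 4 and Ltb4r1 at -0.046 with the GC trend removed. The highest estimate with 1 library left out was 0.118 for Cxcr4 and 0.225 for Fpr2. With 1 library left out, genes at an unadjusted p under 0.05 numbered 201 (without Rragc+/+ replicate 2) to 907 (without Rragc+/+ replicate 5) in place of 388, receptors 0 to 2, pathway genes 1 to 14 in place of 4, and genes whose genotypes did not overlap 129 to 419 in place of 113, which fewer libraries make easier. Array quality weights gave 769 genes, 2 receptors and 16 pathway genes at an unadjusted p under 0.05. A minimum mean of 50, which tests fewer genes, gave 191 genes and 1 pathway gene at that p and 56 genes whose genotypes did not overlap. DESeq2 gave 7 pathway genes, and removal of the GC trend gave 253 genes. With 5 and 4 libraries the intervals of the receptors left room for differences of the size seen, so a missed threshold does not show equal levels. Depth was at least 129 reads for each of the 8 listed receptors in each library, and lower for some genes of the 4 lists.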
